A study of Mus musculus with 6 samples.

Results

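The Wnt pathway genes described here are 60 of the 19938 mouse genes measured in 6 gliomas. They were picked by gene name, as the Wnt ligands, Frizzled receptors, Dickkopf and secreted Frizzled-related inhibitors, and 23 further pathway genes. One of those 23, Tcf7, was not analysed here. One entry, Fzd10os, is a transcript named for the strand opposite Fzd10 and entered only because its symbol begins like those of the receptors. A mutant form of EGFR, the receptor of epidermal growth factor, drove the glioma cells, which were placed under the flank skin of Nu/Nu mice, a strain without a thymus. There were 3 relapsed gliomas, numbered 1, 2 and 3, which grew after extinction of the mutant EGFR, and 3 control gliomas, numbered 1, 2 and 4. Per the labels, drinking water was given with or without doxycycline at 2 g/L and tumours were taken at 2 cm3. The labels do not say which tumours received the drug, what drives the mutant receptor, or whether tumours came from separate mice. Tumour and host are both mouse, so a transcript cannot be assigned to either.

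Wnt proteins are secreted lipid-modified ligands. In the canonical branch a Wnt bridges a Frizzled receptor and the co-receptor Lrp5 or Lrp6, beta-catenin escapes destruction, and it enters the nucleus to act with Tcf and Lef factors on targets such as Axin2. R-spondins raise the response by drawing the ligases Rnf43 and Znrf3, which remove Frizzled from the cell surface, to Lgr receptors, and secreted inhibitors lower it by binding Wnts or Lrp. In the brain the pathway acts in progenitor growth, axon guidance and the formation of vessels, and other Frizzled branches control planar cell polarity.

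Each tumour gave 1 Affymetrix array, and values are log2 intensities, so a difference of 1 is a doubling. Over genes, arrays correlated at r of 0.982 to 0.994 within groups and at 0.962 to 0.979 between groups. Markers of several cell types differed between the tumours. The mean level of 12 fibroblast markers was 9.79 to 10.53 in relapsed and 8.62 to 9.0 in control tumours, with 7 called higher, and that of 10 macrophage markers 9.83 to 10.41 in relapsed and 8.52 to 8.79 in control tumours, with 7 called higher. Of the glial lists, 9 oligodendrocyte progenitor markers averaged 7.57 to 7.70 in relapsed and 8.91 to 9.42 in control tumours, with 5 called lower, and 8 astrocyte markers 8.75 to 9.20 in relapsed and 8.07 to 9.0 in control tumours. Of all genes, 3.69% were called higher and 5.47% lower. Single arrays stood out for 8 of 9 adipocyte markers measured (9.59 in relapsed 1 against 6.29 to 6.73 in the other arrays), 10 keratinocyte markers (7.24 in relapsed 3 against 5.51 to 5.70) and 10 skeletal muscle markers (9.19 in control 2 against 6.93 to 7.47). In log2 intensities no marker can be at 0, and the part of these cells in the results below was not tested.

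Of the 60 pathway genes 2 were called, and most differed by less than 0.25, as most genes of the series did. By limma with Benjamini-Hochberg adjustment over all genes, the receptor gene Fzd3 and the ligase gene Znrf3 fell in relapsed tumours, and 0 members rose. Members called lower were 3.33% of the 60, against 5.47% of all genes called lower, and members called in either direction were 3.33% against 9.16%. At an unadjusted p under 0.05, 2 members were higher and 8 lower, while 11.2% of all genes were higher and 15.4% lower, or 26.6% in either direction. The groups did not overlap for 14 members, or 23.3%, against 30.8% of all genes. The median difference was -0.06 over the members and -0.02 over all genes. A difference of less than 0.25 was seen for 38 of the 60 members and for 12345 of all 19938 genes. A difference of at least 1 was seen for 8 members (Dkk2, Sfrp2, Dkk3, Fzd3, Fzd9, Wnt7b, Znrf3 and Lgr6), and for 5.18% of all genes. By mean, 42 members were lower in relapsed tumours, and 51 with quantile normalization and 53 with median centring, against 54.8%, 64.5% and 68.6% of all genes. Under each of those scalings 5 members were called lower, with Fzd9, Frzb and Wnt2b added, while lower calls over all 19938 genes numbered 1334 with quantile normalization and 1687 with median centring, against 1091 as deposited.

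**Figure D1:**
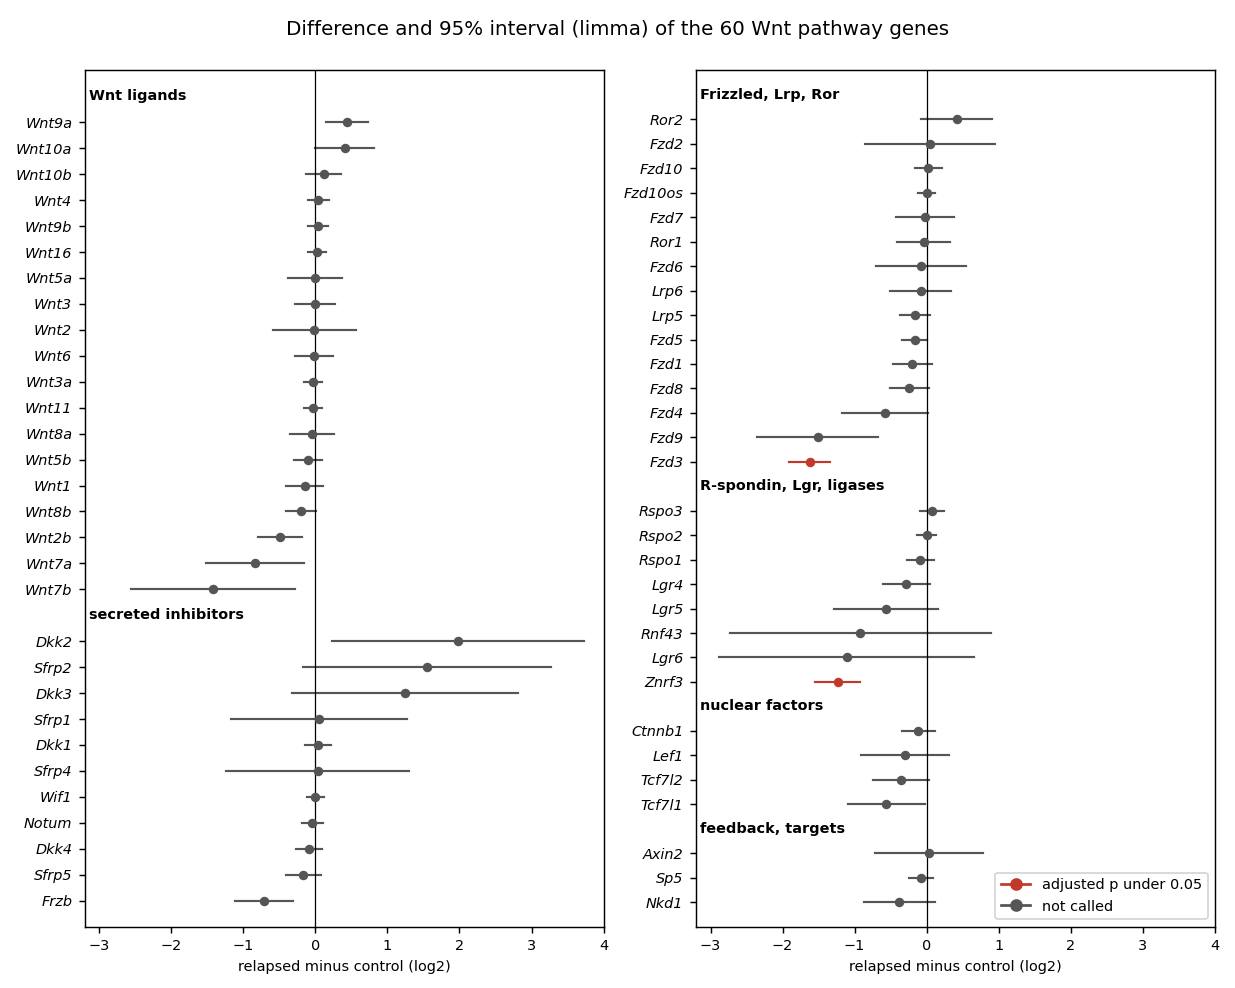
Difference between relapsed and control gliomas (log2, x axis) of the 60 Wnt pathway genes, grouped by role, with 95% intervals from limma over 3 arrays per group. Fzd3 and Znrf3, in red, are the 2 called genes; most other points lie close to 0, and Dkk2, Sfrp2, Lgr6 and Rnf43 have wide intervals.

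Of the 19 Wnt ligands 0 were called in limma, with 1 higher and 3 lower at an unadjusted p under 0.05. The largest differences were those of Wnt7b and Wnt7a, ligands that neural progenitors and glia secrete and that act on the endothelium of brain vessels. Wnt7b stood at 8.73, 10.17 and 10.26 in relapsed 1, 2 and 3, against 11.24, 11.42 and 10.75 in control 1, 2 and 4. The groups did not overlap, and relapsed 1 lay far below the other arrays. The difference was -1.42 ± 0.46 (SE, 3 arrays per group) with an adjusted p of 0.122 in limma, and it was -0.92 without relapsed 1. Wnt7a stood at 5.89, 5.76 and 5.84 in relapsed 1, 2 and 3, against 6.20, 7.26 and 6.53 in control 1, 2 and 4. The relapsed tumours were alike and control 2 was the highest. The difference was -0.83 ± 0.27 with an adjusted p of 0.126, and it was -0.54 without control 2. In the same tumours the mean of the oligodendrocyte progenitor markers differed by -1.46, and 6 of the 9 were lower by mean, against 54.8% of all genes. The mean of 10 endothelial markers was 7.80 to 8.06 in relapsed and 8.14 to 8.38 in control tumours, a difference of -0.30. Of the 10, 9 were lower by mean, against 54.8% of all genes, and 1 was called lower, against 5.47% of all genes.

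Wnt2b, a canonical ligand, stood at 5.85, 5.72 and 5.79 in relapsed 1, 2 and 3 and at 6.53, 6.11 and 6.19 in control 1, 2 and 4. Wnt9a, a ligand of skeletal and joint development, stood at 8.13, 7.84 and 7.94 in relapsed 1, 2 and 3 and at 7.43, 7.71 and 7.45 in control 1, 2 and 4. Neither pair of groups overlapped, yet neither passed the test. The difference of Wnt2b was -0.49 ± 0.12 (adjusted p = 0.0705) and that of Wnt9a 0.44 ± 0.12 (adjusted p = 0.0775). Wnt10a also stood apart, at 7.54 to 8.09 in relapsed and 7.29 to 7.38 in control tumours. Of the 19 ligands 14 differed by less than 0.25. Wnt5a, the main ligand of the beta-catenin-independent branch, averaged 9.06 ± 0.22 in relapsed and 9.06 ± 0.19 in control tumours (SD, n = 3 arrays each), with an interval of the difference of -0.38 to 0.37. The remaining ligands that differed by less than 0.25, Wnt1, Wnt2, Wnt3, Wnt3a, Wnt4, Wnt5b, Wnt6, Wnt8a, Wnt8b, Wnt9b, Wnt10b, Wnt11 and Wnt16, had differences of -0.20 to 0.11.

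Among the receptors, Fzd3 fell and Fzd9 came close to the threshold. Fzd3, a Frizzled receptor known for axon guidance and planar cell polarity in the mouse nervous system, stood at 7.90, 8.20 and 7.81 in relapsed 1, 2 and 3. In control 1, 2 and 4 it stood at 9.64, 9.52 and 9.62. Arrays of each group lay close together and the groups were far apart. Fzd3 fell by 1.62 ± 0.12, a level 3.08-fold higher in control tumours (95% interval -1.91 to -1.34, adjusted p = 0.0066 in limma). The call held with any one of the 6 arrays left out, with adjusted p of 0.0212 to 0.0373.

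Fzd9, a Frizzled receptor of neural progenitors and hippocampus, stood at 7.51, 6.89 and 7.62 in relapsed 1, 2 and 3. In control 1, 2 and 4 it stood at 8.22, 9.13 and 9.21. No relapsed value reached a control value, and control 1 was nearest to the relapsed tumours. The difference was -1.51 ± 0.34 with an adjusted p of 0.0530. Under quantile normalization the adjusted p was 0.0373, under median centring 0.0371, and among the brighter 50% of genes 0.0222, all past the threshold. Fzd9 passed in only these 3 of 15 alternatives. The adjusted p was 0.0638 with array weights and 0.0523 to 0.153 with an array left out.

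The co-receptors and the other Frizzled receptors were not called. Lrp6, a Wnt co-receptor, averaged 9.29 ± 0.33 in relapsed and 9.37 ± 0.06 in control tumours, with an interval of the difference of -0.51 to 0.34. Lrp5, the related co-receptor, averaged 9.29 ± 0.14 in relapsed and 9.45 ± 0.03 in control tumours, with an interval of -0.37 to 0.05. Both intervals end short of the fall of Fzd3. The groups did not overlap for Lrp5. Fzd4, a receptor of norrin in vessels, differed by -0.58 ± 0.24 with an adjusted p of 0.202. Fzd1, Fzd2, Fzd5, Fzd6, Fzd7, Fzd8 and Fzd10 differed by -0.24 to 0.05, and Fzd10os by 0.00. By mean 8 of 10 Frizzled genes were lower in relapsed tumours, 9 with quantile normalization and all 10 with median centring. The shares of all genes lower by mean were 54.8%, 64.5% and 68.6% in the same order. Ror2, a receptor for Wnt5a, differed by 0.42 ± 0.20 (adjusted p = 0.254) and the related Ror1 by -0.04 ± 0.15 (adjusted p = 0.882).

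Znrf3, the membrane ligase that clears Frizzled and Lrp6 from the cell surface, was the second gene to fall. It stood at 7.94, 7.97 and 8.27 in relapsed 1, 2 and 3, against 9.42, 9.13 and 9.33 in control 1, 2 and 4. The groups were separated by more than the spread within either. It fell by 1.24 ± 0.12, a level 2.36-fold higher in control tumours (95% interval -1.55 to -0.93, adjusted p = 0.0115 in limma). Left-out arrays gave adjusted p of 0.0347 to 0.0528, and the call was lost without control 4. Its paralog Rnf43 showed another pattern. It stood at 6.82, 6.35 and 6.32 in relapsed 1, 2 and 3, against 6.51, 9.08 and 6.65 in control 1, 2 and 4. Only control 2, the array high in skeletal muscle markers, was raised, and the difference of -0.92 ± 0.72 was -0.09 without it.

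The Lgr receptors of R-spondins were not called. Lgr5, a stem cell receptor and a target of the pathway in intestine, stood at 7.65, 6.65 and 7.43 in relapsed 1, 2 and 3. In control 1, 2 and 4 it stood at 7.63, 8.09 and 7.72. Relapsed 2 was lowest and the groups overlapped, with a difference of -0.57 ± 0.29 (adjusted p = 0.288). Lgr6, which marks stem cells of the hair follicle, stood at 6.67, 8.92 and 8.89 in relapsed 1, 2 and 3, against 9.95, 9.18 and 8.69 in control 1, 2 and 4. Relapsed 1 was the only array below 8, and the difference of -1.11 ± 0.71 was -0.36 without it. Lgr4 differed by -0.28 ± 0.13 (adjusted p = 0.245), with groups that did not overlap. The R-spondin genes Rspo1, Rspo2 and Rspo3 differed by -0.09 to 0.07. The mean levels of Rspo2 and Rspo3 lay in both groups below 5.66, the median over unannotated probe sets, as did those of Wnt8b, Wnt16, Sfrp5 and Wif1.

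Of the 11 secreted inhibitors 0 were called in limma, with 1 higher and 1 lower at an unadjusted p under 0.05, and several of them varied more between relapsed tumours than between groups. Dkk2, a Dickkopf that binds Lrp5 and Lrp6, stood at 8.84, 7.27 and 10.09 in relapsed 1, 2 and 3. In control 1, 2 and 4 it stood at 6.58, 6.95 and 6.72. Every relapsed tumour lay above every control, but relapsed 2 only slightly. The difference was 1.98 ± 0.70, or 3.94-fold (95% interval 0.23 to 3.73, adjusted p = 0.149). It was 1.30 without relapsed 3, the array high in keratinocyte markers. That array was also the highest for 10 neuron markers (7.78, against 6.70 to 7.10 in the other arrays).

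Sfrp2, a secreted Wnt-binding protein of fibroblasts, stood at 11.97, 10.15 and 9.54 in relapsed 1, 2 and 3. In control 1, 2 and 4 it stood at 9.37, 9.33 and 8.31. Relapsed 1 was the highest, no values of the groups overlapped, and relapsed 3 lay close to the controls. The difference was 1.55 ± 0.69 with an adjusted p of 0.229, and 0.84 without relapsed 1. Dkk3, a divergent Dickkopf, stood at 10.24, 9.42 and 7.82 in relapsed 1, 2 and 3, against 8.31, 7.74 and 7.69 in control 1, 2 and 4. Here relapsed 3 lay within the control range, and the difference of 1.25 ± 0.63 (adjusted p = 0.283) was 0.71 without relapsed 1 and 1.92 without relapsed 3. Relapsed 1 was also the highest array for fibroblast, macrophage, pericyte, adipocyte and astrocyte markers, with mean levels of 10.53, 10.41, 9.26, 9.59 and 9.20.

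Sfrp1 and Sfrp4, relatives of Sfrp2, were high in relapsed 1 too, at 8.61 and 9.24, but at 6.99 to 7.35 and 7.49 to 7.53 in the other relapsed tumours, against 7.30 to 8.19 and 7.85 to 8.35 in control tumours. Their group means differed by 0.04 ± 0.49 and 0.03 ± 0.51, and without relapsed 1 by -0.44 and -0.55. Frzb, another secreted Frizzled-related protein, ran the opposite way. It stood at 5.29, 5.68 and 5.81 in relapsed 1, 2 and 3, against 6.49, 6.29 and 6.14 in control 1, 2 and 4. The groups did not overlap, and the difference was -0.71 ± 0.16 with an adjusted p of 0.0565. It passed with quantile normalization (0.0317) and median centring (0.0363), 2 of its 14 alternatives, and not with any array left out (0.0802 to 0.157). Its relapsed mean of 5.59 lay below the level of unannotated probe sets. Dkk1, Dkk4, Sfrp5, Wif1 and the Wnt-inactivating esterase gene Notum differed by -0.17 to 0.03.

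**Figure D2:**
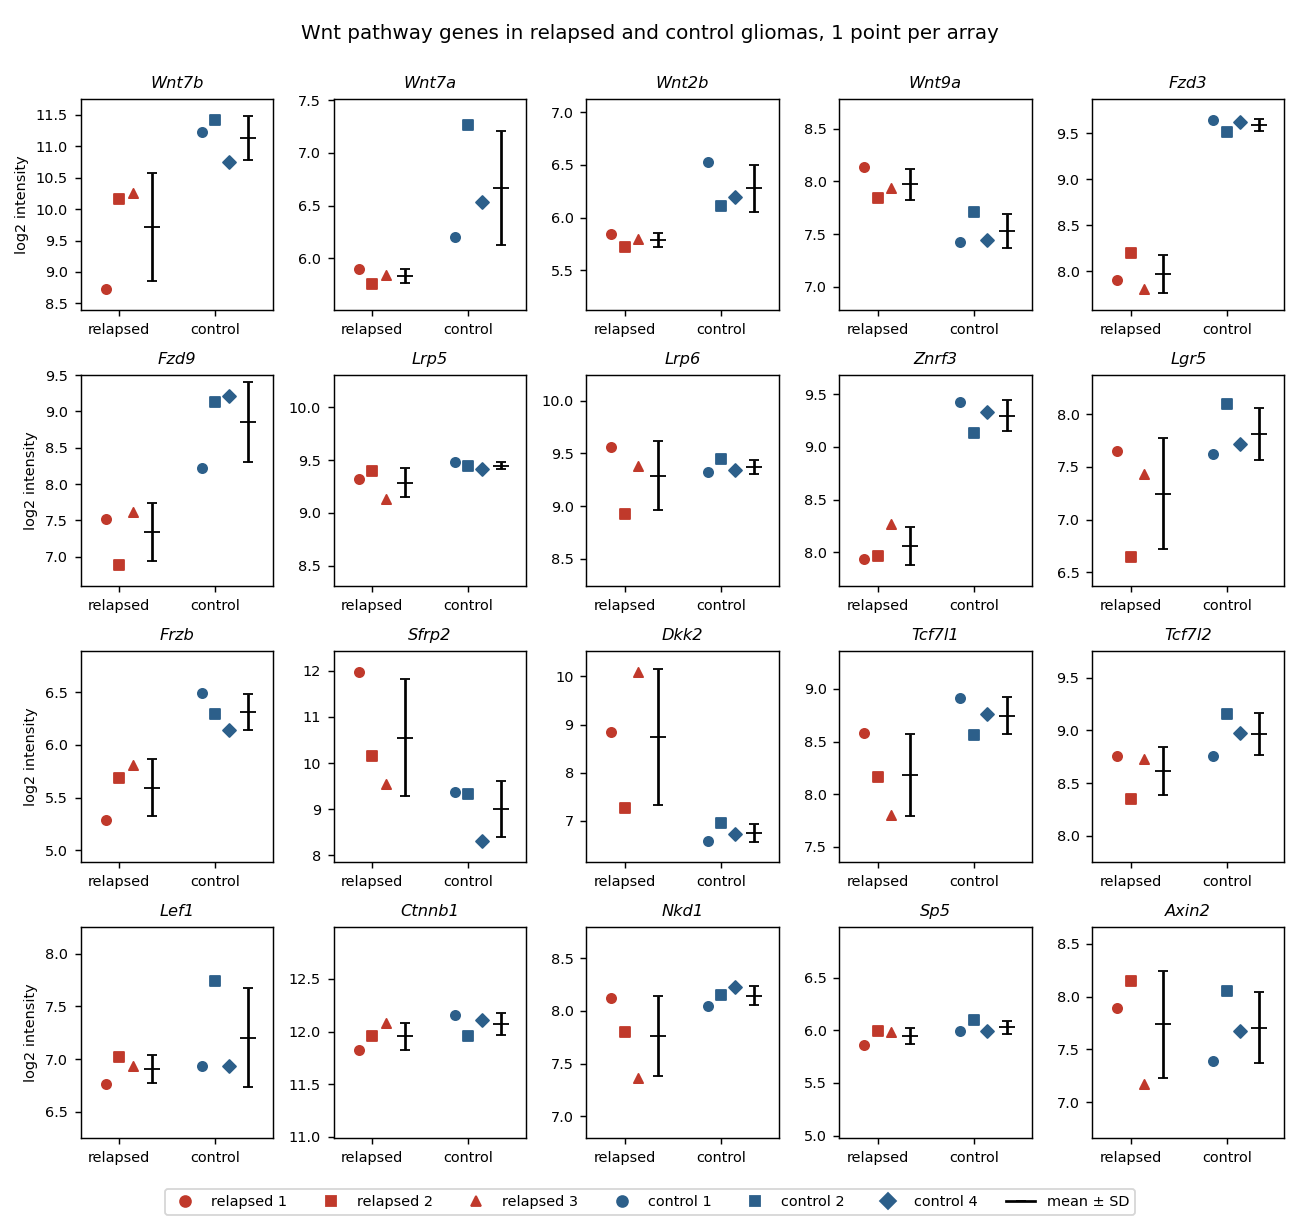
Log2 intensity (y axis, at least 2 units in every panel) of 20 Wnt pathway genes on each array, with relapsed tumours in red left of control tumours in blue and the mean ± SD in black (n = 3). Fzd3 and Znrf3 separate the groups with little spread within them, while Dkk2 and Sfrp2 differ most among the relapsed tumours.

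Of the 4 nuclear factors 0 were called in limma, with 1 lower at an unadjusted p under 0.05. Ctnnb1, which encodes beta-catenin, averaged 11.96 ± 0.13 in relapsed and 12.07 ± 0.11 in control tumours, with an interval of the difference of -0.35 to 0.12. This concerns its transcript only, since the pathway acts on the stability of the protein. Tcf7l1, a mostly repressive Tcf factor, averaged 8.18 ± 0.39 in relapsed and 8.75 ± 0.17 in control tumours, and its groups overlapped. Its difference was -0.56 ± 0.21 (adjusted p = 0.171), and that of Tcf7l2, a main partner of beta-catenin in the brain, was -0.35 ± 0.16 (adjusted p = 0.226). Lef1, a nuclear partner that is also a target, stood at 6.76, 7.02 and 6.93 in relapsed 1, 2 and 3, against 6.93, 7.74 and 6.93 in control 1, 2 and 4. Only control 2 was higher, and the difference of -0.30 ± 0.24 was -0.03 without it.

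Of 9 genes picked by name that are commonly used as transcriptional readouts of beta-catenin, 8 were measured. Znrf3 fell, or 12.5%, against 5.47% of all genes, and the other 7 were not called. The 8 were Axin2, Lef1, Nkd1, Notum, Lgr5, Rnf43, Znrf3 and Sp5. By mean 7 of the 8 were lower in relapsed tumours, with a median difference of -0.34, against 54.8% of all genes. Notum and Sp5 differed by only -0.04 and -0.08. Without control 2, Rnf43, Lef1 and Sp5 differed by -0.09, -0.03 and -0.05, and Axin2 by 0.21. Lgr5 and Nkd1 still differed by -0.43 and -0.38 without it, and Znrf3 was still called lower. Axin2, a scaffold of the destruction complex and the most general of these readouts, stood at 7.89, 8.15 and 7.17 in relapsed 1, 2 and 3. In control 1, 2 and 4 it stood at 7.39, 8.06 and 7.67. The highest and the lowest value were both relapsed tumours. The difference was 0.03 ± 0.30 with an interval of -0.72 to 0.79, so with 3 arrays per group a change of either sign within that interval remains possible. Its sign turned with quantile normalization, with median centring and without some arrays. Nkd1, a feedback inhibitor that binds Dishevelled, stood at 8.12, 7.80 and 7.36 in relapsed 1, 2 and 3, against 8.05, 8.16 and 8.23 in control 1, 2 and 4. Its relapsed values spread below an even control level, with a difference of -0.38 ± 0.20 (adjusted p = 0.291). Sp5, a transcription factor induced directly by the pathway, averaged 5.94 ± 0.08 in relapsed and 6.03 ± 0.07 in control tumours, with an interval of the difference of -0.25 to 0.08.

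Promoter sequences from RefSeq (build GRCm38.p6) were matched by symbol for 40 of the 60 genes, and the 250 bases before each start were searched on both strands for the core words of Tcf and Lef factors, namely CTTTGAA (present in 4.46% of all windows in the table), CTTTGAT (present in 3.21%), CTTTGTA (present in 3.20%) and CTTTGTT (present in 5.03%). The 2 called members, Fzd3 and Znrf3, had no sequence in the promoter set and were not searched. At least 1 word was found for 7 of the 40 genes and in 14.3% of their 49 windows, against 14.8% of all 32851 windows. Sp5 and Dkk1, both known targets, were the 2 genes with 2 words each, and are shown beside Dkk2, the member with the highest positive difference, which had none. The lines run 5′ to 3′ on the strand of the gene and end at its start, with the words, or their reverse complements, in capitals. The regions are chr2:70474673-70474922 (plus strand) for Sp5, chr19:30549497-30549746 (minus strand) for Dkk1 and chr3:132085042-132085291 (plus strand) for Dkk2.
Sp5: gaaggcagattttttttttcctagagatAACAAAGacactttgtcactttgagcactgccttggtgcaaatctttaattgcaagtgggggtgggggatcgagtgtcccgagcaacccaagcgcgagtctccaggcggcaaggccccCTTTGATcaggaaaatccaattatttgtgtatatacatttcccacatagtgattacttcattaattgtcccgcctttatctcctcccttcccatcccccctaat
Dkk1: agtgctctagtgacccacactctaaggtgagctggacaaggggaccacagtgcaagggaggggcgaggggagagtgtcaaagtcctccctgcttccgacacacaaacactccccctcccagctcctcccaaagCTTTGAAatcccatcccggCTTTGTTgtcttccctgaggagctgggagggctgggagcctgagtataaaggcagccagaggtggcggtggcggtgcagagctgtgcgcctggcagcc
Dkk2: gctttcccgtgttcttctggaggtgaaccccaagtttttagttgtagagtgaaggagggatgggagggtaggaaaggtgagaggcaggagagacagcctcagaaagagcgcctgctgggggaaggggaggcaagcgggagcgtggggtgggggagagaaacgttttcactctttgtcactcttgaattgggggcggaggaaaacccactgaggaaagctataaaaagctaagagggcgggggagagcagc
The words of Sp5 begin 222 and 104 bases before the start, and those of Dkk1 117 and 98 bases before it. Sp5 gave the levels above, and Dkk1 stood at 6.18, 6.36 and 6.18 in relapsed 1, 2 and 3, against 6.18, 6.27 and 6.18 in control 1, 2 and 4. Neither showed a difference beyond the spread between arrays. A match describes the letters only, and nothing about factor binding follows from it.

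Over all 6 arrays, 17 of the 60 members, or 28.3%, had a range of at least 1, against 19.5% of all genes. Relapsed 1 was the highest array for 5 of the 17 (Sfrp2, Dkk3, Sfrp4, Sfrp1 and Fzd2) and the lowest for 4 (Lgr6, Wnt7b, Znrf3 and Frzb). Fzd2, a Frizzled receptor, stood at 9.30 in relapsed 1 and 9.11 in control 2, against 8.22 to 8.43 in the other arrays. Relapsed 2 was the lowest array for 6 of the 17 and the highest for 0. Some deposited values recurred exactly between arrays, for 23 of the 60 members and 38.9% of all genes.

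**Figure D3:**
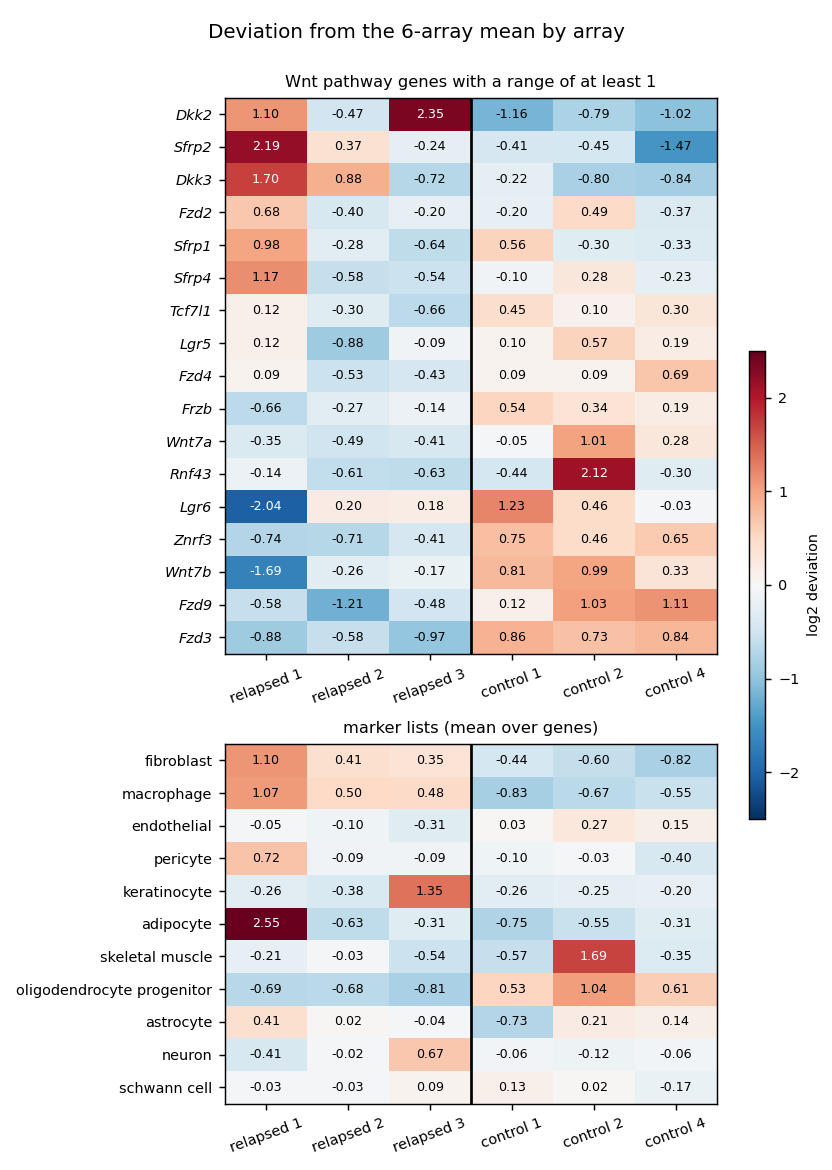
Deviation of each array from the mean of all 6 (log2, colour and printed value), relapsed arrays left of the line and control arrays right of it, for the 17 Wnt pathway genes with a range of at least 1 (top) and for the mean of each marker list (bottom). Fzd3, Fzd9 and Znrf3 are negative in every relapsed array, while the Sfrp genes peak in relapsed 1, where adipocyte markers reach 2.55.

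Further genes of the pathway came from a list of 80 outside the members. Of 78 measured, 2 rose and 10 fell, or 2.56% and 12.8%, against 3.69% and 5.47% of all genes. The median difference was -0.18, against -0.02 over all genes. With an array left out, 9, 4 and 3 of them were called lower without relapsed 1, 2 and 3, and 2, 7 and 1 without control 1, 2 and 4. Lower calls over all genes dropped as well, from 1091 with all 6 arrays to 595, 247 and 171 without relapsed 1, 2 and 3, and to 275, 395 and 144 without control 1, 2 and 4. Without those arrays in the same order, 1, 0, 0, 0, 1 and 1 of the 78 were called higher. Dvl3 alone of the 12 called genes kept its call in all 6 of these fits. Tle3 kept it in 4, Vangl2 in 3, Kremen1, Ccn4 and Prox1 in 2, and Cby1, Celsr2 and Scrib in 1. Wls, Sulf2 and Tle2 kept it in 0 of the 6.

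Among carriers and co-receptors, 1 rose and 2 fell of 12, or 8.33% and 16.7%, against 3.69% and 5.47% of all genes. Wls, the carrier that brings Wnts to the cell surface, rose by 0.65 ± 0.12 (adjusted p = 0.0345), to 11.15, 11.23 and 11.49 in relapsed 1, 2 and 3, against 10.64, 10.49 and 10.78 in control 1, 2 and 4. Kremen1, a co-receptor of Dickkopf proteins, fell by 0.88 ± 0.13 (adjusted p = 0.0222), and Sulf2, a heparan sulfate sulfatase, by 0.43 ± 0.09 (adjusted p = 0.0437). None of the 9 other agonists and inhibitors was called, with 1 higher and 2 lower at an unadjusted p under 0.05 in limma. Of 15 genes of the destruction complex and its regulators, Dvl3 fell and none rose, or 6.67% lower, against 5.47% of all genes. Dvl3, a Dishevelled that relays the signal from Frizzled, stood at 10.06, 9.97 and 9.89 in relapsed 1, 2 and 3, against 11.02, 10.88 and 11.22 in control 1, 2 and 4. It fell by 1.07 ± 0.10 (adjusted p = 0.0109), while its relatives Dvl1 and Dvl2 differed by 0.09 and -0.34 and were not called.

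Nuclear cofactors of beta-catenin and Tcf were lower by mean for 13 of 14 genes, against 54.8% of all genes. With quantile normalization or median centring this held for 14 of 14, against 64.5% and 68.6% of all genes. The groups did not overlap for 10 of the 14, all lower, against 17.8% of all genes. Their shifts were small, with a median of -0.30, and 3 fell in the test, or 21.4%, against 5.47% of all genes. These were Cby1, a beta-catenin antagonist, by 0.56 ± 0.12, and the Groucho co-repressors Tle3 and Tle2, by 0.54 ± 0.06 and 0.29 ± 0.06, with adjusted p of 0.0491, 0.0140 and 0.0467. Of 12 planar cell polarity genes 3 fell, or 25.0%, against 5.47% of all genes. These were Vangl2, Celsr2 and Scrib, a membrane protein, a cadherin and a scaffold that set cell polarity, by 1.23 ± 0.14, 0.91 ± 0.19 and 0.58 ± 0.09, with adjusted p of 0.0139, 0.0461 and 0.0261.

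Among 16 other commonly cited targets, 1 rose and 1 fell, or 6.25% each, against 3.69% and 5.47% of all genes. Ccn4, a secreted matrix-associated protein, stood at 10.38, 9.98 and 9.86 in relapsed 1, 2 and 3, against 8.72, 8.96 and 8.54 in control 1, 2 and 4. It rose by 1.33 ± 0.18, or 2.51-fold (adjusted p = 0.0182), and the mean of the 12 fibroblast markers differed by 1.24 in the same tumours. Of these markers 10 were higher by mean, against 9015 of all 19938 genes. Prox1, a homeobox factor of neural progenitors and lymphatic endothelium, stood at 7.13, 7.90 and 7.38 in relapsed 1, 2 and 3, against 9.17, 8.65 and 9.24 in control 1, 2 and 4. It fell by 1.55 ± 0.25 (adjusted p = 0.0270). Ccnd1, the cyclin D1 gene, and Myc differed by -0.72 ± 0.21 (adjusted p = 0.0994) and -0.19 ± 0.27 (adjusted p = 0.711).

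**Figure D4:**
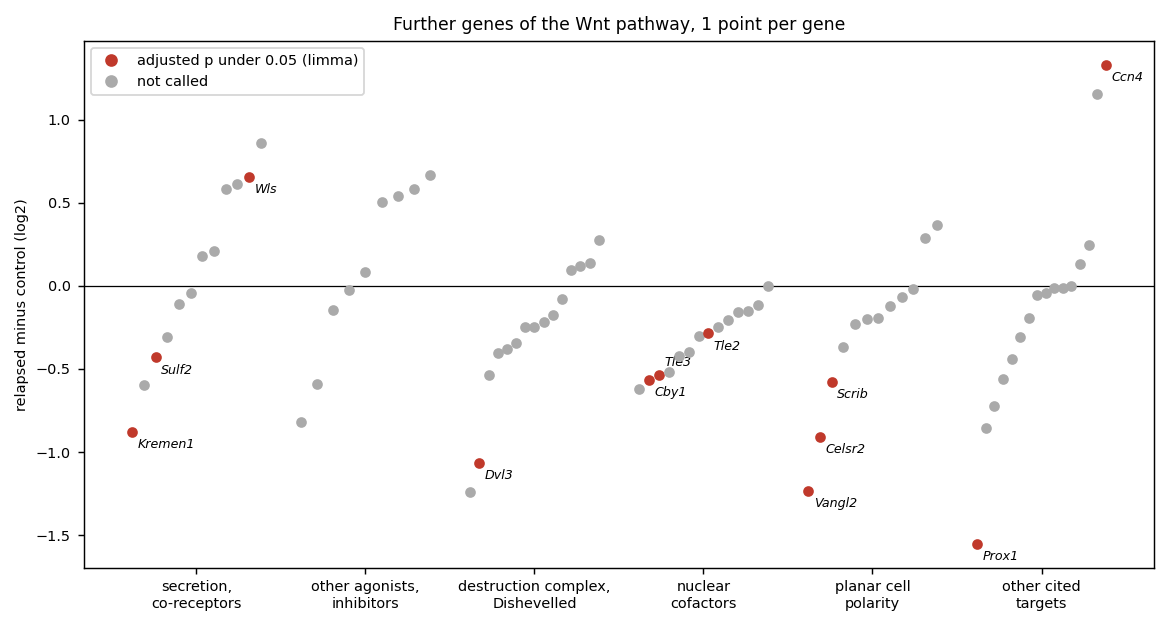
Difference between relapsed and control gliomas (log2, y axis) of 78 further genes of the Wnt pathway, 1 point per gene, ordered within 6 classes; red points are called. Nuclear cofactors lie at or below 0, and Ccn4 and Prox1 are the extremes.

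The sign of the difference held with any one array left out for Fzd3, Znrf3, Fzd9, Frzb, Wnt7b, Wnt7a, Wnt2b, Wnt9a, Sfrp2 and Dkk2. Fzd3 ranged from -1.74 to -1.54 and Znrf3 from -1.34 to -1.17 over the 6 fits with an array left out. Fzd9 ranged from -1.83 to -1.29 and Frzb from -0.82 to -0.56. Sfrp2 ranged from 0.84 to 2.06 and Dkk2 from 1.30 to 2.71. In a bulk sample fewer cells of a type and less RNA per cell cannot be told apart, and this holds for every level given.

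**Figure D5:**
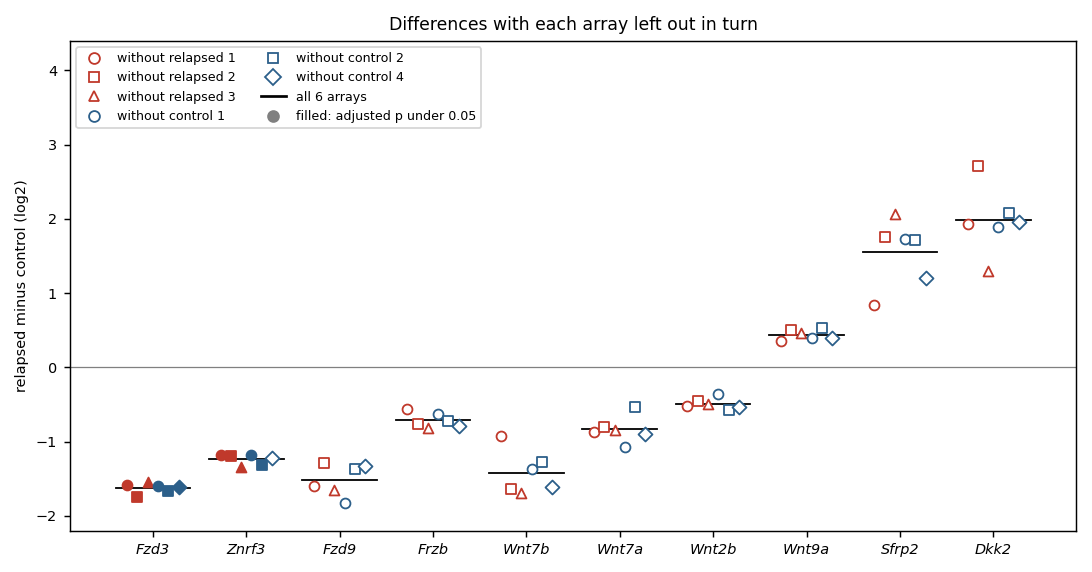
Difference between relapsed and control gliomas (log2, y axis) of 10 Wnt pathway genes, with each array left out in turn (points; filled where the adjusted p was under 0.05) and with all 6 arrays (black lines). Fzd3 is filled in all 6 fits and Znrf3 in 5; no other gene shown is filled, and no point crosses 0.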

How the data were processed

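Total RNA (5 ug per tumour) was made into biotin-labelled cRNA and hybridised to 1 Affymetrix array per tumour, per the labels' protocols. The values the authors deposited are log2 intensities that had been normalized across arrays, as judged from their spread (1.93 to 14.2, with array medians of 6.58 to 6.68). The medians were 6.67 to 6.68 in relapsed and 6.58 to 6.62 in control tumours, so median centring lowers every difference by the same amount. The submitters' processing notes name affy. Neither its version nor the normalization method is stated in the labels. Such normalization hides a change shared by most transcripts, and the number of arrays limits the precision.

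Of 35556 probe sets, 21789 had 1 gene symbol in the platform annotation, 1621 had several and 12146 were not listed. The probe set with the highest mean stood for each gene. Older symbols were matched through RefSeq's gene table. Values were fitted as deposited with limma 3.58.1 (R 4.3.3; lmFit, eBayes; group as the only term; 4 residual and 1.53 prior degrees of freedom). P-values are two-sided, adjusted by Benjamini-Hochberg over 19938 genes, and called under 0.05. The fit was tested on simulated data. P-values set the group difference against the spread between arrays of a group. With 1 array per tumour, that spread can hold differences between tumours as well as technical ones.

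Members, lists and naming rule were chosen with earlier results of these data known. Genes given array by array were those called, those apart by at least 0.5, the 2 smallest p in roles without a call, and Ctnnb1, Axin2, Lef1, Lgr5, Tcf7l2, Lrp5 and Lrp6. For further pathway genes the rule took up to 4 called per class. Rnf43, Lgr6, Dkk1, Dkk3, Sfrp1, Sfrp4, Fzd2, Fzd4, Wnt5a, Wnt10a, Ror1, Ror2, Lgr4, Dvl1, Dvl2, Ccnd1 and Myc were added after their values were seen. Alternatives were a filter on dim genes, 2 scalings, probe set averaging, all probe sets, 2 other variance moderations, array weights, a replicate block and leaving out each array. No set test was run.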

Additional observations from a re-analysis of the deposited data

How the results depend on the processing

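Over 15 alternatives, the members called lower numbered 5 with quantile normalization, 5 with median centring and 0 with the replicate block, and 1 to 2 with an array left out, against 2 in the fit reported. Members called higher numbered 1 with array weights (Wnt9a) and 0 in the others, left-out arrays included (0 to 0). Further pathway genes called lower numbered 16 with median centring, 16 with array weights, 6 with all probe sets tested and 0 with the replicate block, and 1 to 9 with an array left out, and those called higher 0 with the block and 0 to 1 with an array left out. Over all genes, those called lower numbered 1687 with median centring, 716 with all probe sets tested, 0 with the block and 144 to 595 with an array left out, and those called higher 0 with the block and 120 to 380 with an array left out. Lower calls were 59.7% of all calls as reported and 70.8% with median centring. Only numbers 1 and 2 occur in both groups, so in the replicate block fit only the arrays with these numbers inform the group difference. That fit called 0 of all 19938 genes, so the calls lost in it say nothing about single genes. Arrays sharing a number deviated in opposite directions from their group means (correlations of -0.337 and -0.248 over genes). Deviations from the mean of so few arrays constrain each other, so these correlations cannot decide whether the numbers pair the samples. The difference of Axin2 turned to -0.004 with quantile normalization, -0.043 with median centring, and -0.045, -0.174 and -0.128 without relapsed 1, relapsed 2 and control 1 (range over left-out arrays -0.174 to 0.313), and that of Lrp6 to 0.100 without relapsed 2 (range -0.217 to 0.100). The cause was not tested. Of the 474 values of 32 named genes under the alternatives, 385 kept direction and call, 74 lost the call, 9 gained it and 6 changed sign. The block, which left 0 calls, is counted among these alternatives.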

Other observations

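Wnt11 stood at 6.45 in all 3 control tumours, and Wnt16 at 5.51 in all 3 control tumours and in relapsed 1 and 3, so the SD of 0 in control tumours comes from identical deposited values.

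Wnt4 was the only member with a second probe set of its own. It stood at 6.24, 6.42 and 6.36 in relapsed 1, 2 and 3, against 6.47, 6.62 and 6.44 in control 1, 2 and 4, a difference of -0.17 ± 0.08 with an adjusted p of 0.30 over all probe sets. The probe set used above gave 0.04 ± 0.06, so the signs differ and neither passed the test.

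Ccn5, a relative of Ccn4, stood at 10.65, 9.35 and 9.38 in relapsed 1, 2 and 3, against 8.65, 8.95 and 8.32 in control 1, 2 and 4. Its difference was 1.16 ± 0.40 (adjusted p = 0.142), and relapsed 1 was again the highest array. It was chosen after its values were seen.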
